A study of Mus musculus with 16 samples.

Results

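The contacts described here joined 2 gene promoters less than 50 kb apart in mouse liver chromatin. They were taken from 4 lists of promoter interactions, each made at a different time of day, and a fragment was counted as a promoter when it stood in the first column of any list, which holds the captured fragments (baits). A pair was a member when both its fragments were baits on the same chromosome and their midpoints were less than 50 kb apart, whatever its score. There were 5740 members among the 247177 different pairs of the 4 lists. The members lay a median of 27.8 kb apart, and the middle 80% of them lay between 10.8 and 45.7 kb.

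The lists came from livers of wild-type C57BL/6 male mice, labelled as 8 weeks old and, by the methods, of that age before 2 weeks in cycles of 12 hours of light and 12 of darkness with free access to food. Livers were taken without any treatment 0, 6, 12 and 18 hours after lights on, times written as ZT0, ZT6, ZT12 and ZT18. Each timepoint had 3 pools (A, B and C), every pool holding 2 livers, and pool A was sequenced in 2 lanes, which makes 16 samples from 12 pools. A whole liver holds several cell types, and the lists carry no expression values, so the tissue could not be checked against marker genes. The authors merged the pools of a timepoint before calling interactions, which leaves a single list for each timepoint. The spread between livers cannot be seen in them, and differences between timepoints are given without a test. Intervals given below are 95% intervals for counting error only, and members that share a fragment are not independent of each other. The list of ZT0 was the shortest with 146262 pairs, that of ZT6 the longest with 154775, and those of ZT12 and ZT18 held 151529 and 151347. The study's own overview assigns the last 3 of these totals to timepoints in another order, and the sample labels were followed here. Where a statement on light, dark or time of day turns in that other order, this is said beside it. Timepoints given for single pairs are those of the labels.

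In Promoter Capture Hi-C, chromatin that lies together in the nucleus is ligated, and the ligation products that hold a promoter are pulled out with RNA baits before sequencing. The unit of resolution is a HindIII restriction fragment. CHiCAGO, the interaction caller, compares the reads of a fragment pair with what distance and noise alone would give and returns a score, and pairs with a score of 5 or more were listed. A pair missing from a list therefore scored below 5 there, which is no measurement of zero contact. Neighbouring promoters can touch because they share an active hub of transcription, because the cohesin complex extrudes a loop between them that stops at CTCF bound in convergent orientation, or because repressed domains fold onto themselves. Promoters in clusters of related genes, such as histones, apolipoproteins and Hox genes, are known examples of each kind.

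Sequences of 4 member pairs show the range of promoters that were joined. Each run holds 270 bases before and 30 bases from the annotated gene start on, 5′ to 3′ on the strand of the gene, in build mm9, with every CpG in capitals, since the listed share differed with CpG content. Bik and Mcat had the highest lowest score of all members, Ido2 and Ido1 are tandem copies, Fgg and Fgb encode 2 chains of fibrinogen, and Hes6 and Per2 hold a core clock gene.
Bik, chr15:83357022-83357321, plus strand: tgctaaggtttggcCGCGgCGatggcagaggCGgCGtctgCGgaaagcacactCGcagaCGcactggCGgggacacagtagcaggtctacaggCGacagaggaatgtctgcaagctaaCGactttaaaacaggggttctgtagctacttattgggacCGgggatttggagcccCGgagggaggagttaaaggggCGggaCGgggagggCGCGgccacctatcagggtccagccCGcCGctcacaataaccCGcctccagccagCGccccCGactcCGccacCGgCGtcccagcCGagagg
Mcat, chr15:83386112-83386411, minus strand: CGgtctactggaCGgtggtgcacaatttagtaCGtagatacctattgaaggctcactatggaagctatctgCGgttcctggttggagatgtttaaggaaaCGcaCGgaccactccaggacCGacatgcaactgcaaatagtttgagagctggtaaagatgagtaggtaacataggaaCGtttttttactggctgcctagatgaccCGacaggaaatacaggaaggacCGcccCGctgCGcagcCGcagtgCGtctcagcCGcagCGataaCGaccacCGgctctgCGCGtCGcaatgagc
Ido2, chr8:25686776-25687075, minus strand: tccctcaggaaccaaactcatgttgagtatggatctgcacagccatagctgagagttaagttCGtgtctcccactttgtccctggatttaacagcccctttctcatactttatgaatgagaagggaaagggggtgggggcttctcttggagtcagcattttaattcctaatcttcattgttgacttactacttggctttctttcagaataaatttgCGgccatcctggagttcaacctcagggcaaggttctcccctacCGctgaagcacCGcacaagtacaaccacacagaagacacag
Ido1, chr8:25707452-25707751, minus strand: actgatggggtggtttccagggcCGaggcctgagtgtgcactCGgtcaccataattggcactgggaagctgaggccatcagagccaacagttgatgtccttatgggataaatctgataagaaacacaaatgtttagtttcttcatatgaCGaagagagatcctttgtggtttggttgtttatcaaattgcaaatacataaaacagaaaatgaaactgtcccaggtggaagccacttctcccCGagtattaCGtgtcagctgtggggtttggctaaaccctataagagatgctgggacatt
Fgg, chr3:82811511-82811810, plus strand: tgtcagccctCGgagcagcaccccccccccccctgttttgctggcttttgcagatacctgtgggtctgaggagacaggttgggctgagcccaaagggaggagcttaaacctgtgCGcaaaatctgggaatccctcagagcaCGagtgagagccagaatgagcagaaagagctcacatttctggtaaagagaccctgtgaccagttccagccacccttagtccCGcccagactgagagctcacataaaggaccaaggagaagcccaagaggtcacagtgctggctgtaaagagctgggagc
Fgb, chr3:82853696-82853995, minus strand: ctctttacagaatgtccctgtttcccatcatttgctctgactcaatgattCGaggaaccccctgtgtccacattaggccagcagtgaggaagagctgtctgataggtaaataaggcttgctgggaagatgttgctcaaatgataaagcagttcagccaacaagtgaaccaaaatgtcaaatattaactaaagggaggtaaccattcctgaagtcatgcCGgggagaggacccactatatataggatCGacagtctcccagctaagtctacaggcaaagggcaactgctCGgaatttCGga
Hes6, chr1:93310586-93310885, minus strand: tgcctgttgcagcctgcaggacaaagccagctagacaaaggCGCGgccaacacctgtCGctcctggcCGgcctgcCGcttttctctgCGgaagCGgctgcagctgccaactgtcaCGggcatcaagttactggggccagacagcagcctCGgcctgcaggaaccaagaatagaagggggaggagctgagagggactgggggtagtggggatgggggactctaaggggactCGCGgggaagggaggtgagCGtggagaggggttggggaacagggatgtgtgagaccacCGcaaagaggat
Per2, chr1:93355878-93356177, minus strand: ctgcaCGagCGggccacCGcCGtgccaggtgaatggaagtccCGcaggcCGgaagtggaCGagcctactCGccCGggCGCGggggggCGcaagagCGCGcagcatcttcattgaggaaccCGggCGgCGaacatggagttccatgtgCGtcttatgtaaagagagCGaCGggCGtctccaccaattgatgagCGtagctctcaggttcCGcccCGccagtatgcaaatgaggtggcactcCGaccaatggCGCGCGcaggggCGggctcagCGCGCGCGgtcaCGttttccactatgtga

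The windows of Bik and Mcat held 26 and 21 CpGs, with a ratio of observed to expected CpG of 0.844 and 1.002. Those of Ido2 and Ido1 held 4 and 5 CpGs (ratios of 0.247 and 0.337), and those of Fgg and Fgb 4 and 5 (0.168 and 0.315). Hes6 and Per2 differed from each other, with 13 CpGs and a ratio of 0.472 against 34 CpGs and a ratio of 1.091. A CpG-rich promoter was thus found at both ends, at neither end or at a single end of pairs that were listed at all 4 timepoints.

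Of the 16090 pairs of baits that lay less than 50 kb apart, 5740 were listed at any timepoint, which is 35.7% (34.9 to 36.4). None of the 1184 pairs of directly neighbouring fragments was listed, so such pairs were left out of what follows. Whether the caller can list such pairs at all was not tested, so this is no measure of their contact. Among the remaining 14906 possible pairs the listed share was 38.5% (37.7 to 39.3), and this is the background for each share of possible pairs given below. The members used 6773 fragments of the 12689 that had another bait within 50 kb other than a direct neighbour. Of these fragments, 5802 (85.7%) held the start of a protein-coding gene, and of all 18165 baits 83.2% did.

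The share listed was highest between 5 and 15 kb and changed little beyond 20 kb. It was 28.4% (21.6 to 36.3) under 5 kb, with 141 possible pairs, 47.9% (44.7 to 51.2) at 5 to 10 kb and 48.0% (45.4 to 50.5) at 10 to 15 kb. It was 41.6% (39.3 to 44.0) at 15 to 20 kb, and in the 6 bins from there to 50 kb it lay between 33.6% and 37.6%. With a single fragment between the 2 baits, 51.9% (49.1 to 54.7) of the possible pairs were listed, and with 5 fragments between them 36.3% (33.7 to 39.0). At the 50 kb limit no step was seen: 37.6% of possible pairs at 45 to 50 kb were members, and 36.1% of those at 50 to 55 kb, outside the limit, were listed. Chromosomes differed, with the lowest share on chromosome 15 (28.7%) and the highest on chromosome 7 (46.9%) among those with more than 1 possible pair.

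**Figure D1:**
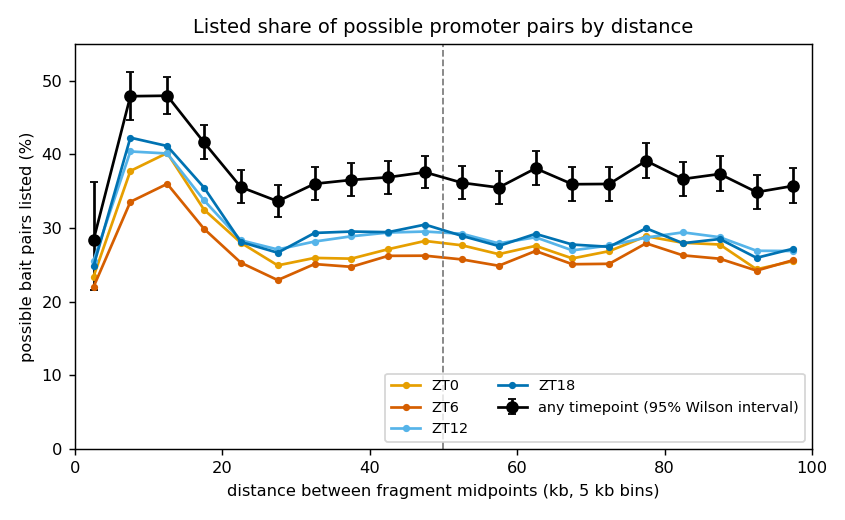
Percentage of possible bait pairs that were listed (y axis) by distance between fragment midpoints in 5 kb bins (x axis), at any timepoint in black with 95% Wilson intervals and in each list in colour, with neighbouring fragments left out; the dashed line marks 50 kb. The share peaks near 48% between 5 and 15 kb and stays between 33.6% and 37.6% from 20 to 50 kb, and ZT6 is the lowest list in every bin under 50 kb.

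The fewest members were in the list of ZT6, although that list was the longest. It had 4055 members, against 4372 at ZT0, 4620 at ZT12 and 4719 at ZT18. Members made up 2.62% (2.54 to 2.70) of the ZT6 list, and 2.99% (2.90 to 3.08) of that of ZT0, 3.05% (2.96 to 3.14) of that of ZT12 and 3.12% (3.03 to 3.21) of that of ZT18. Of the 5740 members 70.6% were listed at ZT6, where 62.6% of all 247177 pairs were. The ZT0 list held 76.2% of members and 59.2% of all pairs, that of ZT12 80.5% and 61.3%, and that of ZT18 82.2% and 61.2%. ZT6 was thus the lowest of the 4 for members and the highest for all pairs. Promoter-promoter contacts of 50 to 500 kb had the same order as members, with 17822 at ZT0, the fewest at ZT6 (17486), 18393 at ZT12 and 18449 at ZT18, and with 11.3% of the ZT6 list against 12.1% to 12.2% of the others. Contacts from promoters to other fragments at the distances of members had a different order, with the fewest at ZT0 (17420), then ZT6 (18427), ZT12 (19549) and ZT18 (20039). The ZT6 list kept the fewest members at a score of 10 or more (1340, against 1432, 1516 and 1598 at ZT0, ZT12 and ZT18). If the lists are read in the order of the study's overview, the list with 4055 members is that of ZT18.

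The typical score of a member was alike in the 4 lists and higher than that of other short contacts. The median score rested between 7.82 (ZT0) and 8 (ZT18), against 6.61 to 6.73 for promoter to non-promoter contacts under 50 kb. A score of 10 or more was reached by 32.8% to 33.9% of members and by 15.9% to 17.2% of those other contacts. Both ends of a member were captured, while a promoter to non-promoter contact has a single captured end, and this difference and that in score cannot be told apart.

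Most members were present throughout the day. Of the 5740 members, 3230 were listed at all 4 timepoints, which is 56.3% (54.98 to 57.6), where 32.5% of all pairs were. At 3 timepoints there were 803 members, at 2 there were 730, and at a single timepoint 977, which is 17.0% (16.1 to 18.0) against 35.2% of all pairs. For promoter to non-promoter contacts under 50 kb the share at all 4 timepoints was 41.9% (11579 of 27612). The members exceeded it by 14.3 percentage points (12.9 to 15.7), by 15.3 points when weighted by distance, and on 20 of 20 chromosomes. Promoter-promoter contacts of 50 to 500 kb reached 36.7% (10261 of 27924), 19.5 points less than members (18.1 to 20.9), again on 20 of 20 chromosomes.

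Persistence followed the score closely. Members of the list labelled ZT12 were grouped by their score in that list, so members missing from it are not counted here. With a score between 5 and 6, 25.9% were listed at all 4 timepoints. Between 6 and 7 it was 51.0%, and between 7 and 8 it was 73.6%. It reached 88.0% between 8 and 10 and 97.0% between 10 and 15. The promoter to non-promoter contacts had 25.4%, 52.6%, 73.3%, 89.2% and 98.2% in the same ranges. Weighted instead by the highest score of each pair over the 4 lists, the difference between both classes was -2.11 points. At like scores in the list labelled ZT12, promoter-promoter contacts of 50 to 500 kb had lower shares up to 15. Examples are 51.0% at scores of 7 to 8 and 72.7% at 8 to 10. Above 15 all classes reached at least 98.79%.

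Among members missing from a single list, ZT6 was the list that lacked them most often. Of the 803 members listed at exactly 3 timepoints, 349 (43.5%, 40.1 to 46.9) were missing at ZT6, 218 (27.1%) at ZT0, 131 (16.3%) at ZT12 and 105 (13.1%) at ZT18. For promoter to non-promoter contacts under 50 kb the share missing at ZT6 was 26.98% (25.7 to 28.3), where ZT0 was the list missing most often (36.7%). For promoter-promoter contacts of 50 to 500 kb ZT6 was again the list missing most often, with a smaller share of 29.4% (28.1 to 30.8) against 26.4% at ZT0, 21.7% at ZT12 and 22.5% at ZT18. As a share of all members, those missing only at ZT6 made up 6.08% against 3.53% of all pairs, and those missing only at ZT0 3.80% against 4.28%. Members listed in the dark phase only (ZT12, ZT18 or both) numbered 862 (15.02%, with 20.6% of all pairs), and those of the light phase only (ZT0, ZT6 or both) 443 (7.72%, with 21.2% of all pairs). Promoter to non-promoter contacts under 50 kb also had more pairs in the dark phase only (19.9%) than in the light phase only (13.5%). In the other order of the lists the members of the dark phase only numbered 538 (9.37%) and those of the light phase only 616 (10.7%), so that the direction for members turned. In that order the list that most often lacked members listed at exactly 3 timepoints is that of ZT18.

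**Figure D2:**
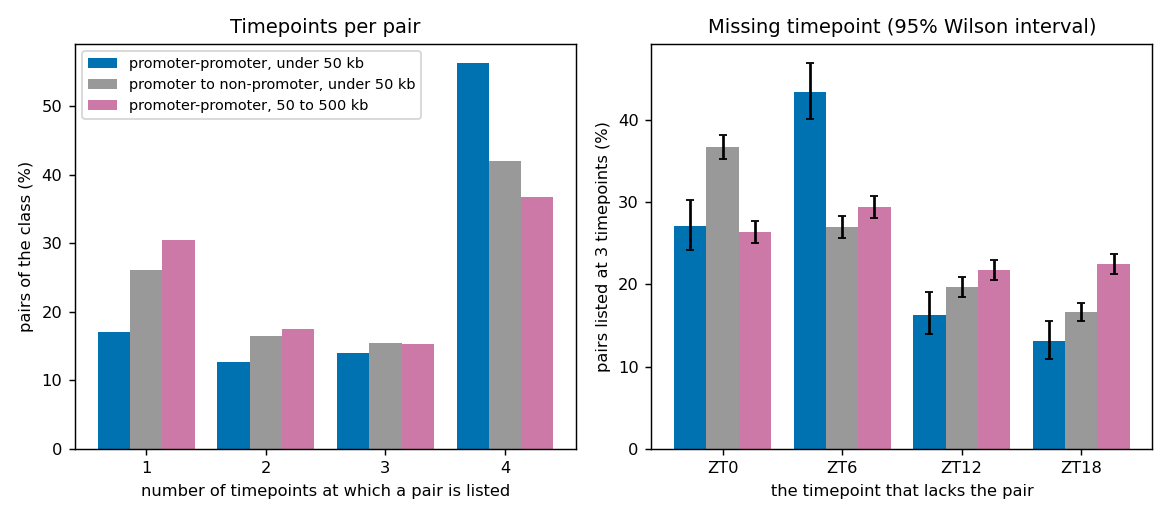
Left, percentage of pairs (y axis) listed at 1, 2, 3 or 4 timepoints (x axis) for members and 2 other classes of contact. Right, for pairs listed at 3 timepoints, the percentage (y axis) missing at each timepoint (x axis) with 95% Wilson intervals; members stand apart at 4 timepoints (56.3%) and in the share missing at ZT6 (43.5%).

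Scores of the members present throughout the day moved little, but these members were chosen by a score of at least 5 in every list. A member that fell below 5 in any list was not among them, which limits the range that could be seen. The ratio of the highest to the lowest of the 4 scores had a median of 1.38, and 90% of ratios lay between 1.13 and 1.93. A ratio of 2 or more was seen for 124 of the 3230 (3.84%). The highest score stood at ZT18 for 1174 members (36.3%), at ZT12 for 900, at ZT0 for 710 and at ZT6 for 446 (13.8%). The median score of these members was lowest at ZT6 (8.85) and highest at ZT18 (9.825), with 9.235 at ZT0 and 9.565 at ZT12. In the other order of the lists, the lowest median and the 446 highest scores fall at ZT18. The highest median and the 1174 highest scores then fall at ZT12. Exact score values between 34 and 37 recurred in the lists, most at ZT6, where 34.94 stood 12 times and 23 values stood 5 times or more. The order of scores within this range is therefore uncertain.

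The strongest constant members joined genes of varied function. Bik, which encodes a protein that promotes apoptosis, and Mcat, an enzyme of mitochondrial fatty acid synthesis, had scores of 82.23, 73.96, 71.62 and 83.91 from ZT0 to ZT18. Ido2 and Ido1, whose enzymes start the breakdown of tryptophan to kynurenine, had 60.06, 58.06, 48.91 and 65.17 in the same order. Both pairs lay about 20 kb apart (19.2 and 21.9 kb), with no other bait between them. The fragment of Ctsa, the lysosomal protease cathepsin A, and Neurl2 met that of Pltp, the phospholipid transfer protein of plasma, with 51.65, 67.31, 57.8 and 56.86. Sprr2k and Sprr1b, small proline-rich proteins of the epidermal envelope, had 63.63, 67.14, 49.6 and 82.21. The strongest members thus joined genes known from skin, from blood plasma and from metabolism.

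Further constant members included Serpina3b with Serpina3c, genes of secreted protease inhibitors, with 40.86, 43.43, 53.36 and 59.45. Hpn, the membrane protease hepsin, met Lgi4 over 47.7 kb with 40.98, 45.05, 50.15 and 66.28. Farsa, a subunit of phenylalanyl-tRNA synthetase, met Klf1, an erythroid transcription factor, over 41.8 kb with 48.9, 47.34, 40.76 and 50.78. All 3 of these had a score of at least 40 in each list. The remaining members of this group were Snora20 with Acat3, a fragment pair of Mir1928 and U6, and Cabp4 and Gpr152 with Coro1b and Ptprcap, with lowest scores of 54.99, 48.69 and 44.49.

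The constant members with the widest range of scores included a pair of related enzyme genes. Adh7 and Adh1, alcohol dehydrogenases, had 6.05, 7.17, 16.86 and 10.22 from ZT0 to ZT18. Psmb4, a proteasome subunit, and Selenbp1, a selenium-binding protein, had 5.02, 6.71, 11.97 and 13.88. Both were higher in the lists labelled ZT12 and ZT18 than in those labelled ZT0 and ZT6, which is a difference between dark and light in the labelled order alone. Zik1 and Vmn1r68, with a wider range than either, went the opposite way, with 30.68, 27.86, 12.38 and 10.14. Ggct and Gars, which encode gamma-glutamylcyclotransferase and glycyl-tRNA synthetase, had their highest score in the list labelled ZT6 instead, with 12.76, 25.53, 9.7 and 7.09. The widest range was that of Zmpste24, a protease that matures lamin A, with a fragment holding a U1 gene, at 9.78, 30.22, 5.01 and 11.61.

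Members seen at a single timepoint mostly had low scores, with a median highest score of 5.5, but a few did not. Dyrk1a, a protein kinase gene, and Dscr3, which takes part in endosomal sorting, met at ZT6 alone with a score of 51.88. The Dscr3 fragment had 4 listed contacts at ZT6 and none in the other lists, while the Dyrk1a fragment had 10, 16, 9 and 9 from ZT0 to ZT18. The fragment at the start of Vwa5b2 met a fragment that holds another transcript start of the same gene at ZT0 alone (44.44), and also Camk2n2, which encodes an inhibitor of the CaMKII kinase, at ZT0 alone (19.97). It had 10 contacts at ZT0, 2 at ZT6 and none at ZT12 and ZT18. In both cases all or most listed contacts of 1 fragment, not of the single pair alone, stood in 1 list, and the part of this in the single-timepoint contact was not tested.

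Other members of this kind were Gm14089 with Ccdc32 and Rpusd2 at ZT6 (15.76), where the Ccdc32 fragment had 10 contacts at ZT6 and none elsewhere. Syngr3, a synaptic vesicle protein, and a transcript start of Rps2, a ribosomal protein, met at ZT12 (23.79), and the Syngr3 fragment had 64, 54, 74 and 64 contacts from ZT0 to ZT18. This pair therefore came and went on a fragment that was rich in contacts at every timepoint. The remaining ones had scores under 10: Serinc3 with Pkig at ZT12 (9.84), E130309D02Rik with Grid2ip at ZT18 (9.41), and the zinc finger genes Zfp212 and Zfp956 at ZT18 (8.64).

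**Figure D3:**
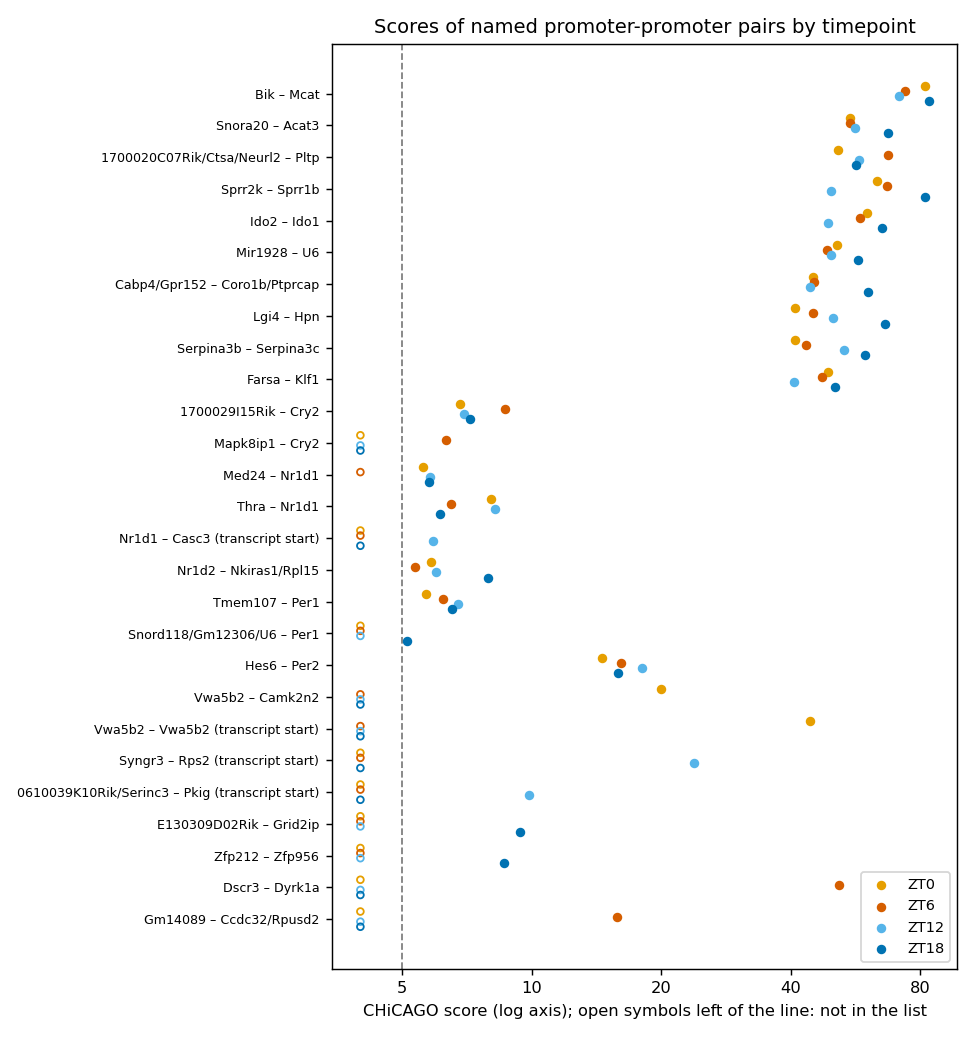
CHiCAGO scores (x axis, log scale) of named members (y axis) in the 4 lists, 1 point per list in its colour. Open symbols left of the dashed line at a score of 5 stand for lists that lack the pair; the 10 constant members at the top score above 40 in every list, the clock gene members below them score between 5.13 and 18.01 where listed, and the members at the bottom stand in a single list.

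Divergent, convergent and tandem pairs were listed at similar rates. Pairs whose genes ran in the same direction (tandem) were listed in 37.5% of 5767 possible cases, divergent pairs in 36.0% of 2805 and convergent pairs in 38.9% of 2270. Divergent minus tandem was -1.46 points (-3.62 to 0.718), and convergent minus tandem was 1.44 points (-0.914 to 3.81). Both intervals held 0. Pairs with gene starts on both strands or none on a fragment, which have no orientation, were listed in 41.4% of 4064 cases (39.9 to 42.9), above the interval of tandem pairs (36.3 to 38.8). Pairs of genes that share a symbol root, taken as a gene family, were listed in 38.8% of 1604 cases and other protein-coding pairs in 39.9% of 9520, a difference of -1.16 points (-3.71 to 1.44). The sign of this last difference turned to 2.46 points (-0.837 to 5.81) when olfactory receptor, vomeronasal receptor and keratin-associated genes were left out, an alternative chosen after seeing the data.

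The listed share differed more by the kind of promoter on the 2 fragments. The CpG ratio of a fragment was the highest among its gene starts. The part of the number of gene starts, fragment length and contact number in these differences was not tested. With a CpG ratio of 0.6 or more at both ends, 43.9% of 2924 possible pairs were listed, and with neither end above it 36.9% of 5449. The difference was 6.99 points (4.78 to 9.20), or 7.43 when weighted by distance, and CpG-rich pairs were higher on 18 of 20 chromosomes. Pairs with a protein-coding start at both ends were listed in 39.8% of 11124 cases, and other pairs in 34.8% of 3782, a difference of 4.97 points (3.19 to 6.73) with the same sign on 17 of 20 chromosomes. Once listed, 56.7% of pairs with 2 CpG-rich promoters and 55.6% of those with none were found at all 4 timepoints, a difference of 1.13 points (-2.35 to 4.59).

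CTCF motifs were searched on both strands of each bait fragment as the letters CCA, AG and GGC in this order with 2 free bases after CCA and 2 after AG. A match can overlap CCAAT, searched below. This motif was present in 43.7% of baits with a possible partner and in 45.6% of those with a member. A convergent arrangement has a forward match in the left fragment and a reverse match in the right one, facing each other. Sites of the 3 convergent members with the highest lowest scores, none of which also had a divergent arrangement, are shown because they carry this arrangement; the third was picked by a lowest score within the range of recurring values. Each holds 9 bases on either side and the motif in capitals, 5′ to 3′ on the strand of the match.
Ctsa and Neurl2 fragment, chr2:164664256-164664285, plus strand: gctagggtgCCAGGAGAGGGCaaaactgga
Pltp fragment, chr2:164672912-164672941, minus strand: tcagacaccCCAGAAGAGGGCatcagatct
Pltp fragment, chr2:164676749-164676778, minus strand: tcagatgcaCCAGAAGAGGGCactggaccc
Pltp fragment, chr2:164683462-164683491, minus strand: tgggagttcCCATAAGGAGGCactcggtgc
Farsa fragment, chr8:87383074-87383103, plus strand: tcagacactCCAGAAGAGGGCattggatcc
Klf1 fragment, chr8:87427145-87427174, minus strand: gccgtgggaCCAGCAGAAGGCgccgcgagc
Slc27a1 and Nxnl1 fragment, chr8:74088063-74088092, plus strand: cagcacacaCCAAGAGATGGCgacagcacc
Pgls fragment, chr8:74115222-74115251, minus strand: atgcagaggCCAGGAGAGGGCatgggatgc

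The Slc27a1 and Pgls pair joins a fatty acid transporter and an enzyme of the pentose phosphate pathway and had scores of 45.49, 36.91, 35.64 and 40.44. Over all possible pairs, 40.9% of the 1367 with a convergent arrangement were listed and 38.3% of the 13539 without one. This is a difference of 2.63 points (-0.0798 to 5.38), or 1.54 when weighted by fragment length and 3.11 when weighted by distance. Convergent and divergent arrangements alone were listed alike, in 40.2% of 1061 and 39.0% of 1161 cases, with a difference of 1.23 points (-2.84 to 5.29). They differed in persistence. Of the listed pairs with a convergent arrangement alone, 265 of 427 (62.1%, 57.4 to 66.5) were listed at all 4 timepoints, and with a divergent arrangement alone 228 of 453 (50.3%, 45.7 to 54.9). The share of all members, 56.3%, lay between both. The difference was 11.7 points (5.17 to 18.1), 11.8 when weighted by distance, with the same sign on each of the 7 chromosomes that had at least 20 pairs of both kinds. It was 1 of 5 such comparisons of persistence, and its interval is not adjusted for their number. Persistence followed the score, and the part of score and of fragment length in this difference was not tested. A motif match is no measure of CTCF binding.

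**Figure D4:**
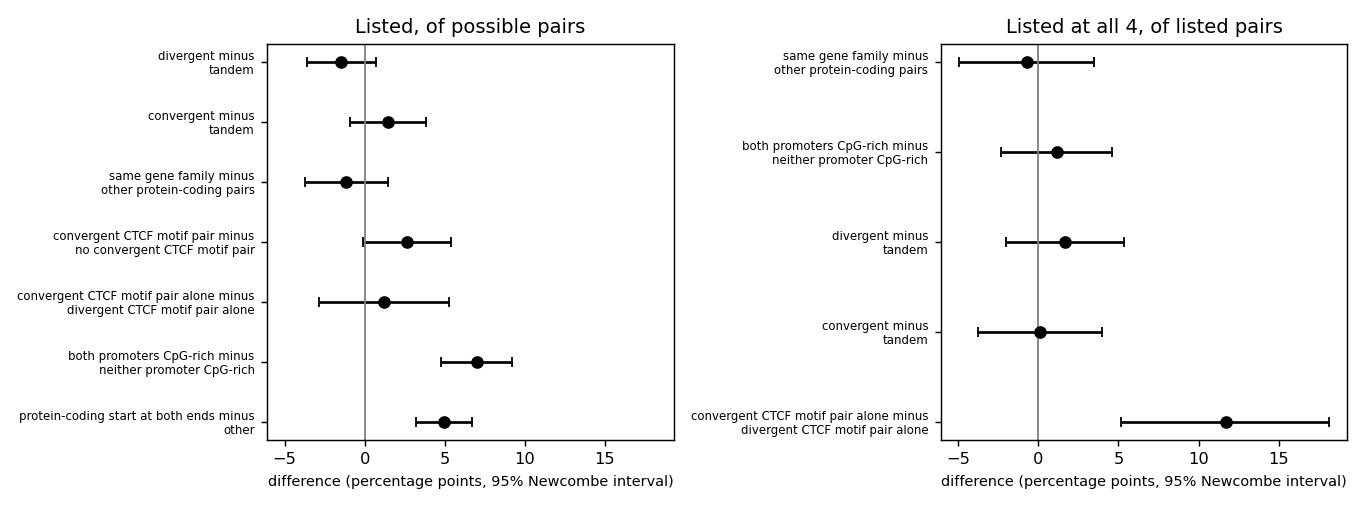
Differences in percentage points (x axis) with 95% Newcombe intervals, for the share of possible pairs that were listed (left) and the share of listed pairs present at all 4 timepoints (right), between the groups of pairs named on the y axes. Left, CpG-rich and protein-coding pairs lie above 0 with intervals that do not hold it; right, the interval for convergent against divergent CTCF motif pairs (5.17 to 18.1) alone does not hold it.

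Short promoter motifs were found at like rates in promoters with and without a member. The windows described above were searched on both strands at the protein-coding starts of 6695 genes on fragments with a member and of 5395 genes on fragments that had a possible partner but no member. The E-box CACGTG, to which CLOCK and BMAL1 bind, was in 8.71% and 8.79% of them, and the D-box TTATGNAA in 3.20% and 3.21%. CCAAT was in 38.5% and 38.2%, the ETS-type motif CCGGAAG in 12.7% and 12.6%, TATAAA in 11.7% and 12.1%, and AGGTCA, bound by nuclear receptors, in 14.8% and 15.1%. Over all 16860 protein-coding promoters on baits the E-box was in 8.56%.

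Gene clusters differed widely in how often their promoters met, set against 38.5% of all possible pairs. Of the possible pairs between replication histone genes, which package newly made DNA, 55 of 76 were listed (72.4%, 61.4 to 81.2), 40 of them at all 4 timepoints. Hox genes, which pattern the body axis of the embryo, had 7 of 89 (7.87%, 3.86 to 15.4). The median distance of possible pairs was 19.1 kb for the histones and 23.7 kb for Hox. Baits of the histones had a median of 41 contacts and those of Hox 16.5, against 10 for all baits with a possible partner. The part of distance and contact number in the listed shares of these and the following clusters was not tested. Zinc finger genes had 51 of 95 (53.7%, 43.7 to 63.4). Olfactory receptor genes, which are expressed in nasal neurons, had 213 of 617 (34.5%, 30.9 to 38.4), on baits with a median of 5 contacts.

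Clusters of liver genes had few possible pairs and ranged from all to none of them listed. Median contacts of their baits were 34.5 for carboxylesterases, 42 for apolipoproteins and 30 for fibrinogen, against 10 for all baits with a possible partner. The median was 9 for cytochrome P450 genes, 8 for UDP glucuronosyltransferases and 33 for the albumin family. The part of these contact numbers in the listed shares was not tested. All 10 possible pairs of carboxylesterases, enzymes that hydrolyse esters of drugs and lipids, were members (72.2 to 100%), 8 of them at all 4 timepoints. Ces1d and Ces1e had scores of 33.1, 35.64, 45.24 and 39.45 from ZT0 to ZT18. All 3 possible pairs of fibrinogen genes, whose products form the blood clot, were members at all 4 timepoints. Fgg and Fgb had 34.34, 29.91, 36.52 and 40.78, and Fgg and Fga 13.43, 11.91, 16.13 and 19.72. In both pairs the list labelled ZT6 was the lowest and that labelled ZT18 the highest. In the other order of the lists, the lowest falls at ZT18 and the highest at ZT12. Median scores of all members listed at all 4 timepoints were also lowest (8.85) and highest (9.825) in these lists, so this ranking was not particular to fibrinogen.

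Apolipoprotein genes, which encode the proteins of lipoprotein particles, had 5 of 5 possible pairs listed, 4 of them at all 4 timepoints. Apoa1 and Apoc3, which share a fragment, met Apoa4 with 21.18, 19.76, 23.72 and 25.96, and Apoc4 and Apoc2 met Apoe with 31.59, 22.72, 32.46 and 34.54. Serpins had 9 of 15 pairs listed, UDP glucuronosyltransferases, which conjugate drugs and bilirubin, 4 of 7, and cytochrome P450 genes, which oxidise drugs and steroids, 5 of 14. Cyp1a2 and Cyp1a1, genes induced by dioxin-like compounds, had 11.4, 10, 14.48 and 19.33 from ZT0 to ZT18. Cyp2d22 and Cyp2d10 had 15.15, 10.02 and 10.13 at ZT0, ZT6 and ZT18 and were not listed at ZT12. Glutathione transferases, which conjugate glutathione, had 3 of 14, serum amyloid A genes, of the acute phase response, 1 of 5 and sulfotransferases none of 3, which allows up to 56.1%. The single possible pair of the albumin family was not listed, and no major urinary protein or metallothionein gene start lay on a bait. With so few pairs most of these intervals held 38.5%, and those that did not belonged to the carboxylesterases, apolipoproteins, fibrinogens and histones, the zinc finger genes, the Hox genes and the olfactory receptors.

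**Figure D5:**
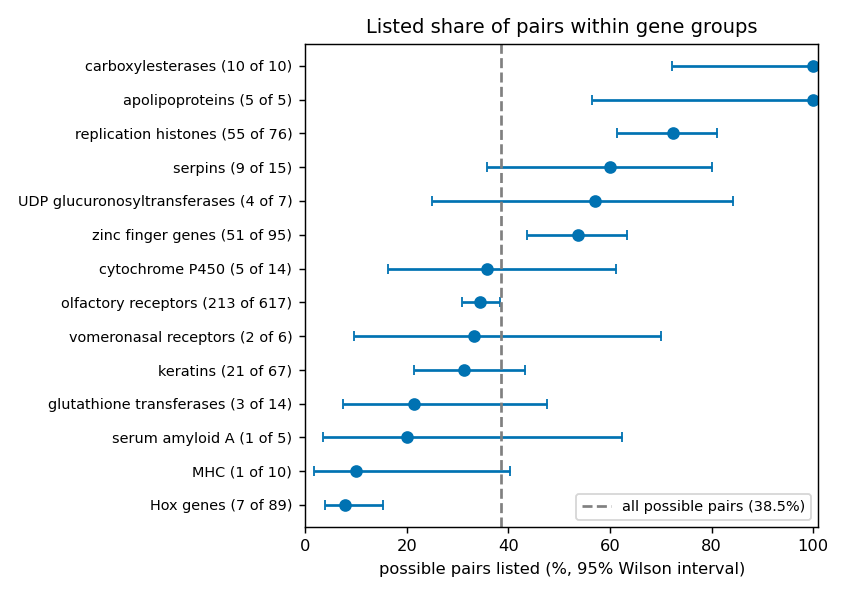
Percentage of possible pairs within each gene group that were listed (x axis) with 95% Wilson intervals, for groups with at least 5 possible pairs (y axis, with counts); the dashed line marks 38.5% for all possible pairs. Carboxylesterases, apolipoproteins, histones and zinc finger genes lie to the right of the line with their whole intervals, and Hox genes and, by a small margin, olfactory receptors to the left.

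Some gene groups hold near-identical copies, whose reads can be shared. At least 5% of the 31-base words of the shorter fragment were shared by 64 of the 5740 members (1.11%) and by 0.993% of the possible pairs that were not listed. Among the named members, Hspa1b with Hspa1a, inducible heat shock proteins, shared 28.4% and Gstm3 with Gstm1 6.03%, so their scores are uncertain. The histone pair with the highest score, Hist1h4h, Hist1h2af and Hist1h3g with Hist1h2bh and Hist1h3f, shared 3.19% and had 74.01, 78.46, 32.09 and 37.65.

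Core clock genes had few close promoter partners. The clock is a loop in which CLOCK or NPAS2 with BMAL1 (Arntl) activates the Per and Cry repressor genes and the nuclear receptor genes Nr1d1 and Nr1d2, which in turn act on Arntl. Arntl, Npas2 and Cry1 had no possible partner, and the single possible pair of Clock was not listed. Per2 had 1 member of 2 possible pairs, with Hes6, a gene of the HES family of transcription factors, with scores of 14.55, 16.17, 18.01 and 15.84 from ZT0 to ZT18. Both genes have their acrophase, the time of highest RNA, at ZT18 in the study's list, while the score varied little through the day.

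Nr1d1, which encodes the repressor REV-ERB alpha, met Thra, the thyroid hormone receptor gene that overlaps it, in all 4 lists with 8.06, 6.49, 8.2 and 6.11. Its contact with Med24, a subunit of the Mediator complex, was listed at ZT0 (5.59), ZT12 (5.82) and ZT18 (5.76) but not at ZT6, and that with a transcript start of Casc3 at ZT12 alone (5.89). These scores lie so close to 5 that presence and absence are not told apart by more than a small change of score. Nr1d2 met Nkiras1 and Rpl15 with 5.85, 5.35, 6.01 and 7.9. Per1 met Tmem107 with 5.67, 6.24, 6.75 and 6.53, and a fragment of Snord118 at ZT18 alone (5.13). Cry2 met 1700029I15Rik in all 4 lists (6.82, 8.68, 6.96 and 7.21) and Mapk8ip1, a scaffold of JNK signalling, at ZT6 alone (6.33).

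Promoters of circadian genes, taken from the study's list of genes that oscillate, which was made on livers of the same experiment, met more often than others. With no circadian end 37.7% of 13127 possible pairs were listed, with 1 circadian end 43.7% of 1695, and with 2 circadian ends 45 of 84 (53.6%, 43.0 to 63.8). The difference from pairs with none was 5.91 points (3.42 to 8.42) for 1 end and 15.8 points (5.21 to 26.1) for 2. Within pairs whose promoters were both CpG-rich, those with at least 1 circadian end exceeded those with none by 6.62 points (2.02 to 11.2). At all 4 timepoints there were 55.9% of the members with no circadian end, 58.0% of those with 1 and 66.7% (52.1 to 78.6) of those with 2.

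Listed circadian pairs did not share their phase more often than circadian pairs that were not listed. With ZT0 and ZT6 taken as diurnal and ZT12 and ZT18 as nocturnal, both genes had the same phase in 22 of 44 members (50%, 35.8 to 64.2) and in 29 of 38 unlisted pairs (76.3%, 60.8 to 87.0). The difference was -26.3 points (-44.1 to -5.30). Among members with a score of 10 or more the share was 10 of 15 (66.7%, 41.7 to 84.8), and of genes that oscillate at the intron level there were only 2 such members, both with the same phase. The same acrophase timepoint was shared by 15 of 44. These numbers are small, and the share among members moves with the score minimum.

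The circadian members with the highest mean score included pairs of either kind. Abcb11, the bile salt export pump, and Dhrs9, a retinol dehydrogenase, both with acrophase at ZT6, had 17.04, 12.54, 10.83 and 16.98. Sdr42e1 and Hsd17b2, a steroid dehydrogenase, both at ZT6, had 14.85, 13.29, 14.35 and 16.64. Akr1c19 and Akr1c12, aldo-keto reductases with acrophase at ZT12, had 10.34, 11.67, 14 and 10.22. Junb, an immediate early gene with acrophase at ZT6, met Hook2 (ZT12) with 8.85, 11.31, 12.02 and 10.73, and B3gat3 (ZT0) met Eef1g (ZT18) with 18.29, 17.84, 12.46 and 14.57. The list with the highest score was the one at the shared acrophase for Akr1c19 with Akr1c12, in the labelled order alone, and not for Sdr42e1 with Hsd17b2, Abcb11 with Dhrs9 or Hes6 with Per2.

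Members with a circadian end were not confined to the time of highest RNA. Those of a gene with acrophase at ZT18 were listed at ZT18 in 88.4% of 198 cases (83.2 to 92.1), against 82.2% of all members, and at ZT0 in 74.2%. In the other order the list of ZT18 is the one labelled ZT6, where 72.2% of them were listed, the lowest of the 4. Those with acrophase at ZT0 were listed at ZT0 in 84.2% of 183 cases, but in 87.4% at ZT12 and 85.2% at ZT18, and in 69.9% at ZT6. Those with acrophase at ZT6 were listed at ZT6 in 72.02% of 168 cases and those with acrophase at ZT12 at ZT12 in 82.6% of 259, against 70.6% and 80.5% of all members. For every acrophase the list labelled ZT6 was the lowest of the 4.

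Linked through shared fragments, the members formed 2091 separate groups, of which 1178 consisted of a single pair. Most fragments had few members, with 4024 of 6773 in 1 member and 1610 in 2. There were 60 groups of 10 or more fragments, which held 915 fragments. The largest group had 36 fragments and 64 members, 48 of them at all 4 timepoints, and lay at chr7:31197661-31774979, with Tyrobp, Nfkbid, Aplp1 and Cox6b1. A group of 34 fragments on chromosome 17 held Cfb, C2 and Hspa1b, in the region of the complement genes of the major histocompatibility complex. One of 33 fragments on chromosome 6 held Tpi1, Eno2 and Cd4. The fragments with the most members, 10 each, were those of Tmem223, Ccdc142 and Gm14192, a transcript among keratin-associated genes. Fragments with a member had a median of 12 other contacts, and fragments with a possible partner but no member, direct neighbours included as partners, had 7.

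Pairs that met did not share more of their distant contacts. For pairs in which each end had at least 5 contacts beyond 50 kb, the share of distant contacts in common, out of all those of either end, had a median of 24.0% for 3648 listed pairs and 28.6% for 4529 pairs that were not listed. The share was lower for listed pairs in each 5 kb bin from 5 to 50 kb, such as 32.4% against 41.7% at 5 to 10 kb and 18.3% against 21.1% at 45 to 50 kb, and it was higher for listed pairs on 2 of 20 chromosomes. Listed pairs had more contacts per end, a median of 20.5 against 16.5, and as many in common, 7 in both sets, and the part of the contact number in the lower share was not tested. Pairs at all 4 timepoints had a median of 22.1% and those at a single timepoint 27.3%. The pair with the most distant contacts in common, 116, joined the fragment of Mir23b and Mir27b with a transcript start of Fancc, a DNA repair gene, over 29.9 kb.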

How the data were processed

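Liver samples (16, from 12 pools) of 4 timepoints were processed by the authors into 4 deposited lists. Reads were mapped to mm9 and filtered with HiCUP, the pools of a timepoint were merged, and interactions were called with CHiCAGO. Versions of these tools are not given in the sources used here. The deposited value is the CHiCAGO score, 1 per fragment pair, with a minimum of 5. The lists hold no read counts, and read totals were not used here.

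Tables were handled in python 3.11.15 (pandas 2.3.3, numpy 2.4.6). Each pair was treated as unordered. Of 129887 listed fragments, 129886 matched the HindIII digest of the mm9 reference. Gene starts came from GENCODE M1, circadian genes and acrophases from the study's list. Intervals are Wilson for shares and Newcombe for differences (scipy 1.17.1), networks used networkx 3.6.1, and figures matplotlib 3.10.9. Functions were tested on simulated data. Signs by chromosome were counted where both groups had at least 20 pairs.

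The members, comparisons and gene groups were chosen with earlier results of these data known. Named genes followed a fixed rule: the 10 members with the highest lowest score (1 per fragment), 2 per timepoint listed there only, the 10 circadian pairs of highest mean score, pairs of core clock genes (some items are not reported here), the 2 top pairs of each gene group, and the 3 fragments and the linked group with the most members; the constant pairs of widest range and others were named after their values were seen. Alternatives raised the score minimum, changed the distance or bait rule, equalised list lengths or weighted by distance, fragment length or score.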

Additional observations from a re-analysis of the deposited data

How the results depend on the processing

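The list of ZT6 had the fewest members under every alternative that kept the labelled order of the lists. With the score minimum raised to 7, members from ZT0 to ZT18 numbered 2614, 2440, 2875 and 2913, which was 3.60%, 3.16%, 3.78% and 3.84% of the lists. With a minimum of 10 there were 1432, 1340, 1516 and 1598, or 4.47%, 3.92%, 4.50% and 4.75%. A limit of 25 kb left 2027, 1832, 2081 and 2138. Distance taken as the gap between fragments gave list shares of 3.46%, 3.04%, 3.53% and 3.59%, and baits taken from the same timepoint alone 2.82%, 2.50%, 2.92% and 2.99%. The share listed at all 4 timepoints was 52.5% at a score of 7, 49.4% at a score of 10 and 60.6% under 25 kb. It was 72% when a contact up to 10 kb beside the other end was accepted, 63.5% when no fragment was used more than once, and 60.8% when both ends were baits at all 4 timepoints, an alternative chosen after seeing the data. Its difference from promoter to non-promoter contacts was 12.6 points at a score of 10. Of the possible pairs, 22.5% were members at a score of 7, 12.6% at a score of 10 and 38.5% with neighbouring fragments left out. The difference for gene families was 2.46 points without olfactory, vomeronasal and keratin-associated genes, chosen after seeing the data. Agreement in phase was 66.7% at a score of 10 and 100% for the 2 pairs oscillating at the intron level. The causes of these shifts were not tested. No paired analysis was possible because each timepoint has a single merged list, and no replicate was left out for the same reason. When the score minimum was raised, baits stayed as in the lists as deposited. The lists hold no read counts, so a pair missing from a list was not told apart from one with too few reads.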
